A study of Mus musculus with 8 samples.

Results

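The 10 genes described here are the chondrogenic SOX factors Sox5, Sox6 and Sox9 and 7 genes of cartilage matrix proteins that are not collagens, namely Acan, Hapln1, Matn1, Matn3, Matn4, Comp and Chad. They were taken by gene name from a table of 21692 genes, all 10 were found once, and all 10 were among the 15517 genes that had enough reads to be tested. The RNA came from forelimb buds of CD1 mouse embryos of gestation day 13, kept in culture for 24 h. The vehicle group received dimethyl sulfoxide (DMSO), and the OPE group received a house dust-based mixture of organophosphate esters, which are flame retardants and plasticisers, diluted 1 in 300000. There were 4 libraries per group, called vehicle 1 to 4 and OPE 1 to 4. The labels do not say whether these came from separate litters or how many limbs were pooled, so p-values measure the spread between these libraries, part of which may be technical.

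Cartilage forms when limb mesenchyme condenses and switches on Sox9, the transcription factor that commits cells to the chondrocyte fate. SOX5 and SOX6, a closely related pair without a transactivation domain of their own, act with SOX9 at cartilage enhancers such as those of the aggrecan and collagen II genes. The matrix that results is a gel of aggrecan bound to hyaluronan, with link protein locking the complex and matrilins, COMP and chondroadherin joining collagen fibrils, aggrecan and cells. In endochondral ossification these chondrocytes later enlarge, turn on collagen X, and are replaced by bone, and the comparison asked how the OPE mixture bears on that process.

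None of the 10 genes had an adjusted p under 0.05 over all genes tested (quasi-likelihood test of edgeR), against 0.477% of all genes tested. The ranges of the OPE and vehicle values overlapped in all 10, whereas they did not overlap in 9.49% of all genes tested. At an unadjusted p under 0.05 there were 2 of the 10, Chad and Hapln1, both lower with OPE, and the share over all genes tested was 13.2%. The log2 fold change (OPE over vehicle) was below 0 in 7 of the 10 and in 47.2% of all genes tested. Their median was -0.06, against 0.01 over all genes tested. DESeq2 and limma-voom, run on the same counts, also called 0 of the 10, each with 2 at an unadjusted p under 0.05. Over the 15517 genes tested, DESeq2 called 536 and limma-voom called 101. At an unadjusted p under 0.05 the counts over all genes were 2209 and 2095.

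**Figure D1:**
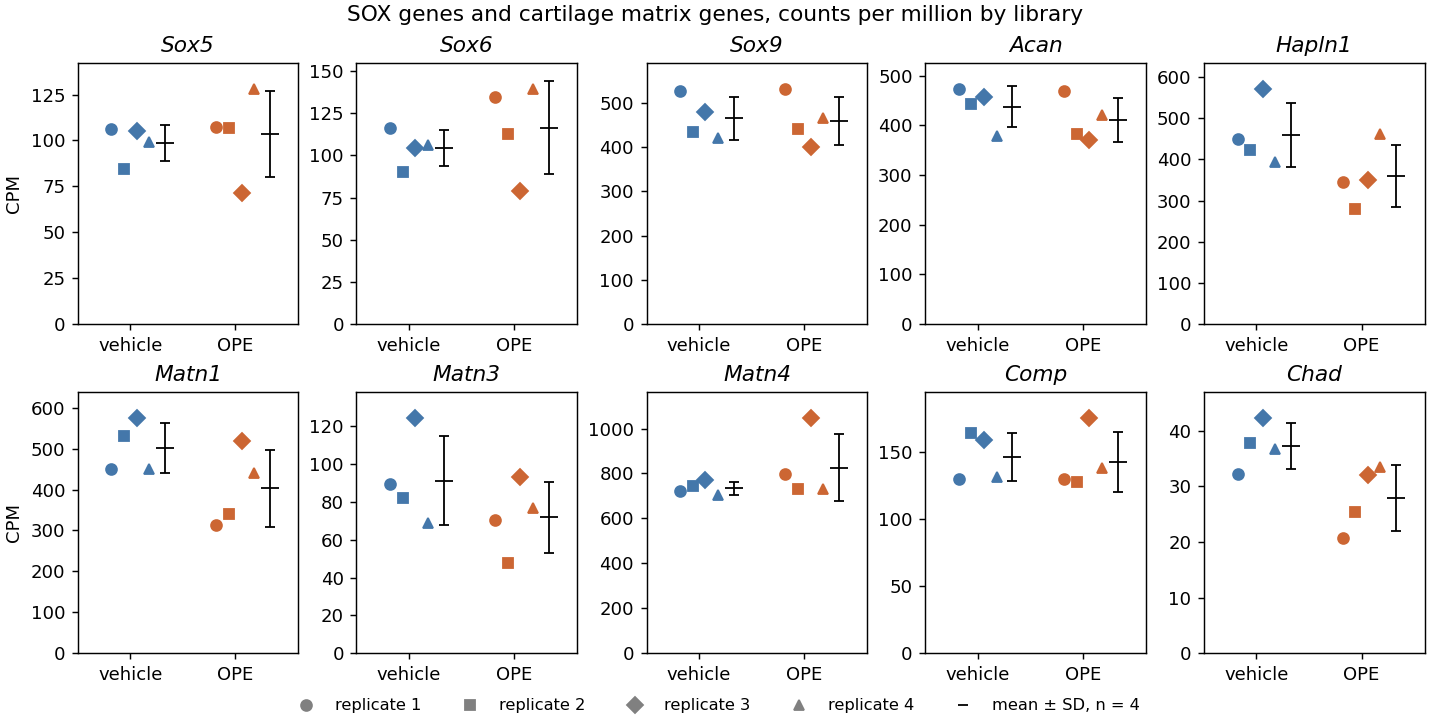
Read counts scaled to library size (CPM, vertical axis from 0) of each gene in the 4 vehicle and 4 OPE libraries, one symbol per replicate, with the mean and SD of each group. The OPE values overlap the vehicle values in all 10 panels, and the lowest Matn1 and Chad values are those of OPE 1 (312 and 20.8 CPM).

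The libraries held between 14986793 and 22006738 reads counted to genes, and the 10 genes took between 0.260% and 0.343% of them. In a principal component analysis of log2 CPM, OPE 3 lay far from the rest on component 1 (36.9% of the variance) and OPE 1 on component 2 (25.3%). In OPE 3 longer genes were lower, with a slope of -0.24 log2 CPM per doubling of gene length against -0.06 to 0.07 in the other 7 libraries. The summed level of 7 cartilage markers, of which 4 are genes described here, was 8551 to 10175 CPM in vehicle and 8428 to 9480 CPM in OPE libraries, and none of the 7 was near 0. Col2a1 made up most of this sum in every library, at 5728 to 6833 CPM with vehicle and 5874 to 6644 CPM with OPE. Summed over 9 macrophage markers the level was 129 to 148 CPM with vehicle and 23.6 to 61.5 CPM with OPE, and over 6 endothelial markers 223 to 275 and 107 to 206 CPM. Taken singly, 0 of the 6 endothelial markers had an adjusted p under 0.05 (edgeR). Emcn did not follow the sum, at 9.14 to 10.9 CPM with vehicle and 9.97 to 16.6 CPM with OPE, and Kdr and Tek overlapped between the groups too. The marker sums of skeletal muscle, tendon, Schwann cells and ectoderm overlapped between the groups. Taken singly, Myh3 of muscle was 741 to 822 CPM with vehicle and 510 to 688 CPM with OPE. Kera of tendon was 84.3 to 102 and 49.9 to 73.3 CPM. The other markers of these types overlapped, and over all genes tested 9.49% did not overlap. In bulk RNA fewer cells of a type and less RNA per cell cannot be told apart, and the part of these shifts in the values below was not tested.

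Per gene length, the matrilin genes Matn1 and Matn4 were the most abundant of the 10 and Sox5 and Sox6 the least. The deposited FPKM of Matn1 averaged 255 ± 31.4 with vehicle and 197 ± 40.3 with OPE (SD, n = 4 in each), and that of Matn4 182 ± 6.77 and 196 ± 27.5. Matn1 was above Matn4 in 6 of 8 libraries, so this pair was not separated in every library. Sox9 followed at 114 ± 11.1 and 109 ± 15.6 FPKM, below Matn4 and above Hapln1 in all 8. Hapln1 had 92.5 ± 15.3 and 69.8 ± 15.3 FPKM, above Comp in 7 libraries. Comp (61.2 ± 7.60 and 57.5 ± 6.67 FPKM) and Acan (60.4 ± 5.41 and 54.9 ± 7.06 FPKM) could not be ordered, with Comp higher in 5 of 8. Matn3 (30.7 ± 7.85 and 23.3 ± 5.48 FPKM) was below Acan and above Chad (22.5 ± 2.53 and 16.3 ± 3.33 FPKM) in all 8 libraries. Chad was above Sox5 in 7 libraries, as Sox5 (13.9 ± 1.33 and 14.1 ± 3.58 FPKM) was above Sox6 (12.9 ± 1.26 and 14.0 ± 3.65 FPKM). Sox9 was thus several-fold above its partners per gene length in both groups.

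**Figure D2:**
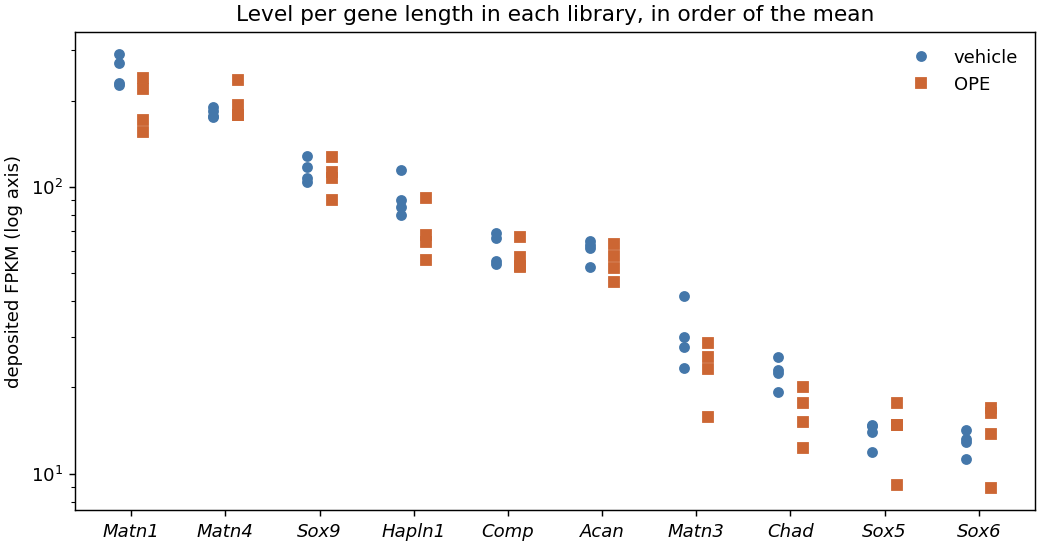
Deposited FPKM of each gene in each library on a logarithmic axis, ordered by the mean over all 8 libraries. Matn1 and Matn4 overlap, as do Comp with Acan and Sox5 with Sox6, while Sox9 lies above Hapln1 within every library.

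Sox9, the master regulator of chondrocytes (ENSMUSG00000000567, chromosome 11, 112782224 to 112787760, plus strand, mm10), held 527, 434, 479 and 421 CPM in vehicle 1 to 4 and 531, 442, 401 and 466 CPM in OPE 1 to 4. The highest and the lowest of these values are both OPE libraries, OPE 1 and OPE 3. The log2 fold change was -0.02 ± 0.12 (SE, edgeR adjusted p = 0.974), and its 95% interval of -0.27 to 0.24 leaves room for a fall of 17.0% or a rise of 17.8%. The sign of so small a difference was not fixed: it was above 0 in 4 of 20 alternative fits.

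Sox5 (ENSMUSG00000041540, chromosome 6, 143828425 to 144781977, minus strand) held 106, 84.6, 105 and 99.0 CPM in vehicle 1 to 4 and 108, 107, 71.2 and 128 CPM in OPE 1 to 4. Sox6 (ENSMUSG00000051910, chromosome 7, 115471344 to 116038744, minus strand) held 116, 90.5, 105 and 106 CPM with vehicle and 135, 113, 78.9 and 139 CPM with OPE. Both genes showed the same order of OPE libraries at the ends: OPE 3 was the lowest of all 8 and OPE 4 the highest. The spread between OPE libraries was about the same for the pair, with coefficients of variation of 22.8% and 23.7%, against at most 10.1% between vehicle libraries. The log2 fold changes were 0.07 ± 0.16 for Sox5 and 0.16 ± 0.16 for Sox6 (edgeR adjusted p = 0.909 and 0.751), with 95% intervals of -0.27 to 0.41 and -0.20 to 0.51.

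The fold changes of this pair moved with single OPE libraries, up or down. Without OPE 4 they were -0.05 for Sox5 and 0.06 for Sox6, and without OPE 1 0.04 and 0.08. Without OPE 3 they were 0.21 ± 0.09 and 0.31 ± 0.10 (edgeR unadjusted p = 0.045 and 0.00701, adjusted p = 0.268 and 0.119), and neither passed. In that fit 2810 of 15824 genes tested had an unadjusted p under 0.05. With each library's gene-length trend removed the fold changes were 0.10 ± 0.09 and 0.19 ± 0.08 (edgeR unadjusted p = 0.291 and 0.033, adjusted p = 0.627 and 0.241). Of 20 alternative fits, the unadjusted p was under 0.05 in 2 for Sox5 and 3 for Sox6. Sox5 and Sox6 are, at 7243 and 8227 bases in the length column, with Acan (7355 bases) the longest of the 10. The ratio of Sox5 to Sox6 reads within a library stayed between 0.799 and 1.00 in all 8 libraries, and was 0.903 in OPE 3. Antisense genes overlap both loci, and those in the table hold at most 0.294% of the reads of the SOX gene. Of these Sox5os1 shares 1330 exon bases with Sox5. The strand setting of the counting is not known here, and the part of the antisense genes in either count was not tested.

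Acan, which encodes aggrecan, the large proteoglycan that gives cartilage its resistance to compression (ENSMUSG00000030607, chromosome 7, 79053483 to 79115099, plus strand), held 473, 442, 456 and 378 CPM in vehicle 1 to 4 and 469, 383, 370 and 421 CPM in OPE 1 to 4. Of the 4 OPE values 3 were inside the vehicle range and OPE 3 just under it. The fit gave a log2 fold change of -0.09 ± 0.11 (edgeR adjusted p = 0.80), with a 95% interval of -0.33 to 0.15, so a fall of more than 20.6% lies outside the interval. Acan followed Sox9 from library to library, and their read ratio (Sox9 over Acan) was 0.982 to 1.12 with vehicle and 1.08 to 1.16 with OPE.

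Hapln1 encodes the link protein that fastens aggrecan to hyaluronan (ENSMUSG00000021613, chromosome 13, 89540636 to 89611832, plus strand). It held 450, 423, 571 and 395 CPM in vehicle 1 to 4 and 346, 280, 350 and 461 CPM in OPE 1 to 4. The values of OPE 1 to 3 were below all vehicle values, while OPE 4 was at the level of vehicle 1. With OPE the log2 fold change was -0.36 ± 0.16 (unadjusted p = 0.0475, adjusted p = 0.374, edgeR), with a 95% interval of -0.71 to -0.00475, and without vehicle 3, the highest vehicle library, it was -0.24. Link protein and aggrecan RNA thus gave different estimates, with intervals that overlap: the Hapln1 to Acan read ratio was 0.952 to 1.25 with vehicle and 0.732 to 1.10 with OPE.

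The 4 promoter windows printed here belong to Matn1 and Chad, whose levels varied alike over the libraries, to Hapln1, the other gene with an unadjusted p under 0.05, and to Matn4, whose log2 fold change was above 0. Each spans 250 bases before to 50 after a RefSeq start site (build GRCm38.p6), 5′ to 3′ on the gene's strand. Capitals mark matches on either strand to 3 motifs. The motif ACAAT is a short form of the site that SOX proteins bind. The motif ACAAAG is a variant of it. The motif TATAAA is a TATA box.
Matn1 (chr4:130944135-130944434, plus strand): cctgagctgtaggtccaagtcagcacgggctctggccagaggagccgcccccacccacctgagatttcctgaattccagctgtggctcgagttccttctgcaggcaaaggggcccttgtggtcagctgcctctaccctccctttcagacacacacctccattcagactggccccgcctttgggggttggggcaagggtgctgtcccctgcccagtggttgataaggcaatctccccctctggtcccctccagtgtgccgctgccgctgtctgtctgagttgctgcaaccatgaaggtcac
Chad (chr11:94564797-94565096, plus strand): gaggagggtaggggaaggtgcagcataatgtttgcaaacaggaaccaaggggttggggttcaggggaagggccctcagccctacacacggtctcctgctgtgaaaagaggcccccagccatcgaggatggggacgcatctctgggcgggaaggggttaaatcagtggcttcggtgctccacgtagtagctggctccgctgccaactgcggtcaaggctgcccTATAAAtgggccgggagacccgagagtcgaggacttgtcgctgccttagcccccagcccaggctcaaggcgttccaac
Hapln1 (chr13:89540386-89540685, plus strand): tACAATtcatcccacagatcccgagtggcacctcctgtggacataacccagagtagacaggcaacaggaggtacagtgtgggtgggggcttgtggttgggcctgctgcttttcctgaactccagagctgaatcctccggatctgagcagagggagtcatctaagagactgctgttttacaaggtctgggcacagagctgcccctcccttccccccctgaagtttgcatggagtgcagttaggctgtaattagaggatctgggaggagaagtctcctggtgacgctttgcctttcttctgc
Matn4 (chr2:164405111-164405410, minus strand): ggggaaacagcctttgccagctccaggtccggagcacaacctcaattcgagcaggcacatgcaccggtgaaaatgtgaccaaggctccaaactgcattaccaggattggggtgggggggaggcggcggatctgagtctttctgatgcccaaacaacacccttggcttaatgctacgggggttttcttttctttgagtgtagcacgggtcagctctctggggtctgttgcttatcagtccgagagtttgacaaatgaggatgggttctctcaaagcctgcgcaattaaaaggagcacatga
In these 4 windows Hapln1 held 1 ACAAT, starting 249 bases before the start site, Chad held 1 TATAAA, starting 28 bases before it, and Matn1 and Matn4 held none of the 3. The motifs do not overlap one another in these windows. Of all 32851 RefSeq windows of this length, 31.0% held ACAAT, 18.7% ACAAAG and 13.6% TATAAA on either strand. The RefSeq table gave 14 windows for 8 of the 10 genes, of which 5 held ACAAT, 5 ACAAAG and 3 TATAAA, and 6 of the 14 were starts of Sox6. All windows that held ACAAAG were starts of Sox6. Outside Sox6, ACAAT was found only for Hapln1 and Sox5, and TATAAA only for Chad. Sox9 and Comp had no entry. A match describes the letters only, and no match says nothing of binding elsewhere at the gene.

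Matrilins are filament-forming adaptor proteins of cartilage, and their 3 genes gave fold changes on both sides of 0, none of which passed. Matn1, the classical cartilage matrix protein (ENSMUSG00000040533, chromosome 4, 130944385 to 130955475, plus strand), held 450, 532, 574 and 449 CPM in vehicle 1 to 4 and 312, 341, 518 and 440 CPM in OPE 1 to 4. OPE 1 and OPE 2 were clearly below the vehicle range, OPE 4 was just below it and OPE 3 inside it. Its log2 fold change was -0.32 ± 0.16 (unadjusted p = 0.0759, adjusted p = 0.437, edgeR; 95% interval -0.67 to 0.04). It was -0.46 ± 0.12 without OPE 3 and -0.22 without OPE 1, and neither value passed over all genes (the lower adjusted p was 0.0853).

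Matn3, linked in humans to multiple epiphyseal dysplasia (ENSMUSG00000020583, chromosome 12, 8947929 to 8972028, plus strand), was the most variable of the 10 among vehicle libraries, with a coefficient of variation of 25.9%. It held 89.5, 81.8, 124 and 69.1 CPM in vehicle 1 to 4 and 70.2, 47.4, 93.0 and 76.9 CPM in OPE 1 to 4. Only OPE 2 was below the vehicle range. Its log2 fold change of -0.34 ± 0.21 (edgeR adjusted p = 0.531) had the widest interval of the 10, -0.81 to 0.12, and it was -0.16 without vehicle 3.

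Matn4, a matrilin that is also made outside cartilage (ENSMUSG00000016995, chromosome 2, 164389393 to 164405160, minus strand), held 720, 743, 770 and 705 CPM in vehicle 1 to 4 and 800, 729, 1045 and 731 CPM in OPE 1 to 4. The vehicle libraries agreed closely (coefficient of variation 3.86%), OPE 2 and OPE 4 were inside their range, and OPE 3 stood far above it. The log2 fold change was 0.17 ± 0.13 (edgeR adjusted p = 0.626; 95% interval -0.11 to 0.45). It was 0.04 ± 0.07 without OPE 3. Matn4 shares 149 exon bases with Rbpjl on the other strand, which held 0.63% as many reads.

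The balance of the matrilins was compared within libraries, which needs no scaling between them. The ratio of Matn1 to Matn4 reads was 0.626, 0.716, 0.746 and 0.638 in vehicle 1 to 4 and 0.390, 0.468, 0.496 and 0.602 in OPE 1 to 4. All 4 OPE ratios were below all vehicle ratios, with means of 0.489 ± 0.0876 and 0.681 ± 0.0588 (SD, n = 4). Matn1 over Comp was the other pair that did not overlap, at 2.41 to 3.19 with OPE and 3.24 to 3.62 with vehicle. These are 2 of the 45 pairs among the 10 genes (4.44%), both pairs hold Matn1, and over all pairs of genes tested the share was 10%, so such pairs were no more frequent here than in the table as a whole. The ratios carry no test, because these pairs were picked for their separation.

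**Figure D3:**
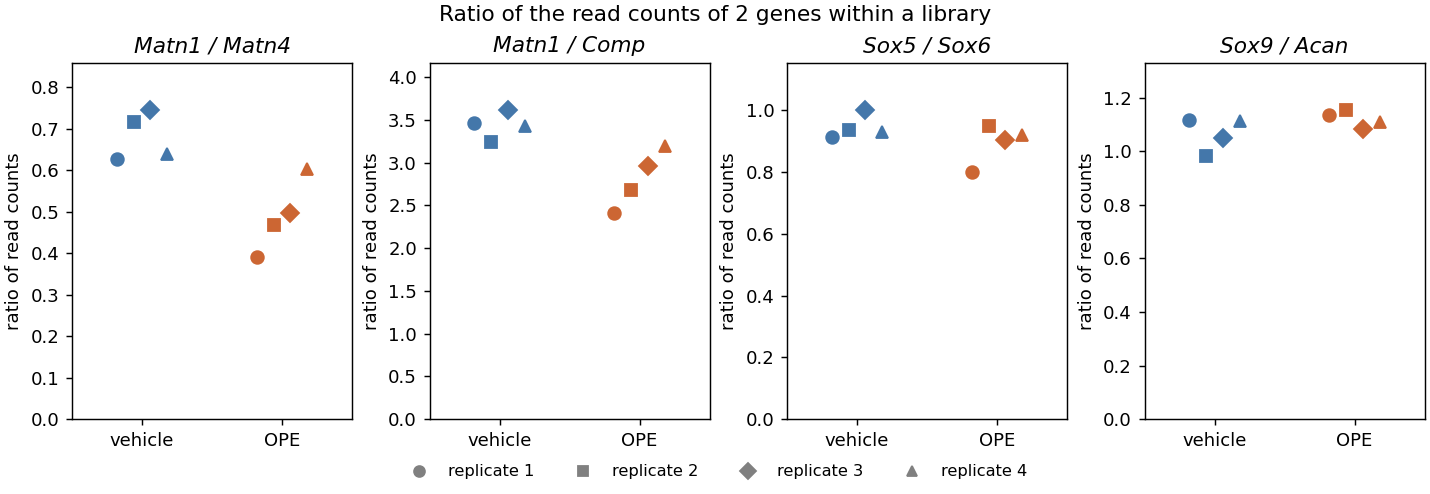
Ratio of the read counts of 2 genes within each library, vertical axes from 0, one symbol per replicate number. The groups are apart for Matn1 over Matn4 and Matn1 over Comp, whereas Sox5 over Sox6 (0.799 to 1.00) and Sox9 over Acan (0.982 to 1.16) overlap.

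Comp encodes cartilage oligomeric matrix protein, a pentameric thrombospondin that is also made in tendon (ENSMUSG00000031849, chromosome 8, 70373548 to 70382065, plus strand). It held 130, 164, 159 and 131 CPM in vehicle 1 to 4 and 130, 128, 175 and 138 CPM in OPE 1 to 4. The extremes were again OPE libraries, OPE 2 lowest and OPE 3 highest, the former by a narrow margin. For Comp the log2 fold change was -0.03 ± 0.12 (edgeR adjusted p = 0.946), and the 95% interval of -0.31 to 0.24 leaves room for a fall of 19.3% or a rise of 18.1%. The 6 tendon markers summed to 455 to 549 CPM with vehicle and 391 to 490 CPM with OPE, and their part in the Comp values was not tested.

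Chad, which encodes chondroadherin, a leucine-rich protein that binds chondrocytes through an integrin, gave the largest fold change of the 10 (ENSMUSG00000039084, chromosome 11, 94565047 to 94569127, plus strand). It held 32.2, 37.7, 42.2 and 36.8 CPM in vehicle 1 to 4 and 20.8, 25.4, 32.0 and 33.6 CPM in OPE 1 to 4. All 4 OPE values were under the vehicle mean, but OPE 4 was above vehicle 1, so the groups overlapped. The log2 fold change was -0.42 ± 0.15 (unadjusted p = 0.0199, adjusted p = 0.27, edgeR), with a 95% interval of -0.75 to -0.08, that is a fall of 5.36% to 40.7%. It was below 0 in all 20 alternative fits, between -0.52 and -0.30, and the lowest adjusted p among them was 0.104.

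Chad was also the least sequenced of the 10, with 384 to 902 reads per library. The gene lies within the span of Acsf2 on the other strand, with no shared exon base in GENCODE M21. Acsf2 held 201% as many reads as Chad, and its own log2 fold change was 0.03 ± 0.09 (edgeR adjusted p = 0.941). The strand setting of the counting is not known here, so reads from unspliced Acsf2 RNA cannot be told apart from those of Chad.

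**Figure D4:**
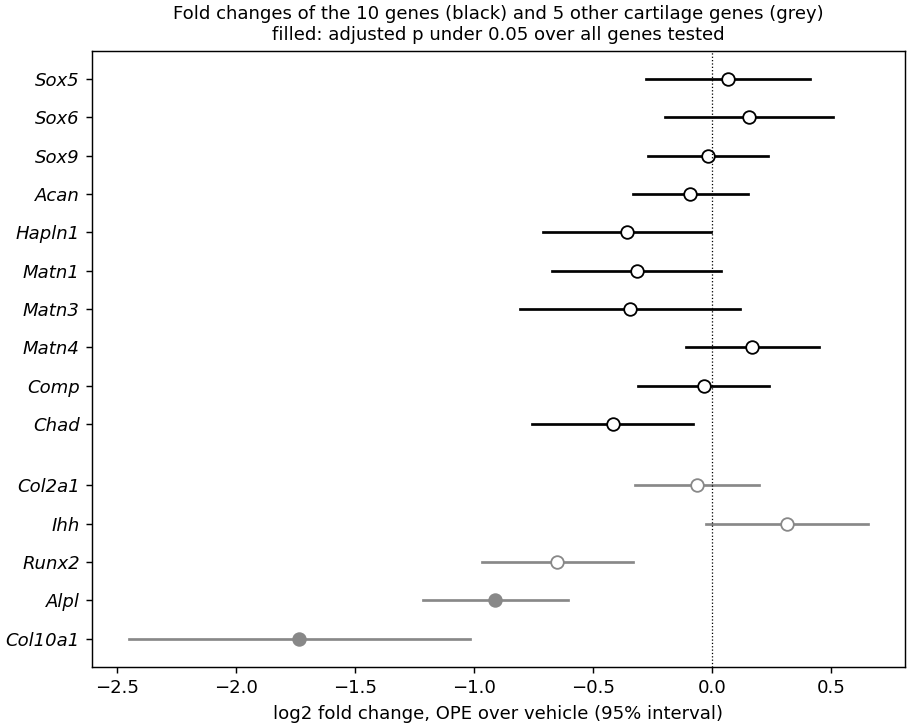
Log2 fold change (OPE over vehicle) with its 95% interval for the 10 genes in black and for 5 other cartilage genes in grey, filled where the adjusted p is under 0.05. All 10 black points are open, from -0.42 for Chad to 0.17 for Matn4, while Alpl (-0.91) and Col10a1 (-1.73) are filled.

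Some of the 10 genes varied alike over the libraries. Likeness was measured as the root-mean-square difference of log2 CPM over the 8 libraries after each gene's own mean was taken away, where 0 means the same pattern, and genes that vary little come out alike for that reason alone. Sox5 and Sox6 differed by 0.09, and among the other 11763 genes of at least 5 CPM Sox6 ranked 13 by likeness to Sox5 and Sox5 ranked 28 by likeness to Sox6. Sox9 and Acan differed by 0.07, with Sox9 at rank 13 for Acan and Acan at rank 90 for Sox9. Matn1 and Chad differed by 0.11, with Chad at rank 5 for Matn1 and Matn1 at rank 12 for Chad. Among the 10, Matn3 was nearest to Hapln1 (0.21), which was at rank 3 for Matn3, while Matn3 was at rank 150 for Hapln1. Matn4 was nearest to Comp among the 10 (0.14), but 1744 other genes were nearer to Matn4 than Comp was.

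The nearest genes outside the 10 followed the same measure. For Sox9 they were Ror1, a Wnt5a receptor (0.04), Camsap2, a microtubule-end protein (0.05), and Myo1c, an unconventional myosin (0.05). For Acan they were the kinase gene Nek4 (0.05), the collagen II gene Col2a1 (0.05) and Qsox2, a sulfhydryl oxidase gene (0.05). For Chad they were Trip13, a checkpoint ATPase of dividing cells (0.09), Tcf19 (0.10) and Cd44, a hyaluronan receptor (0.10). These are descriptions of 8 libraries that share their scaling and the outlying OPE 1 and OPE 3.

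**Figure D5:**
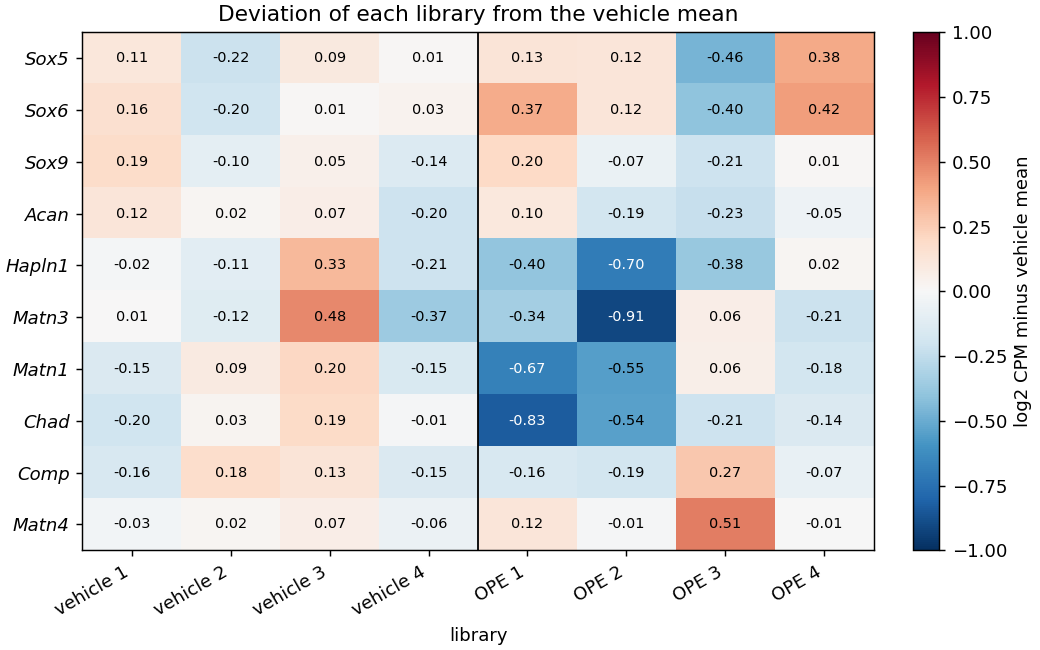
Log2 CPM of each gene (rows) in each library (columns) minus the mean of the 4 vehicle libraries, red above and blue below. OPE 1 and OPE 2 are lowest for Matn1 and Chad (-0.67, -0.55, -0.83 and -0.54), and OPE 3 is lowest for Sox5 and Sox6 (-0.46 and -0.40) and highest for Matn4 (0.51).

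Seen by library, the matrix genes did not move as a block. Hapln1, Matn1, Matn3, Comp and Chad were below the vehicle mean in both OPE 1 and OPE 2, whereas Matn4 was above it in OPE 1 and near it in OPE 2 (0.12 and -0.01). All 7 matrix genes were below the vehicle mean in OPE 2, and all but Hapln1 (0.02) in OPE 4. Acan was above it in OPE 1 (0.10) and lowest in OPE 3 (-0.23), where Hapln1 (-0.38) and Chad (-0.21) were also below it. The median of the 7 matrix genes, relative to the vehicle mean, was -0.34, -0.54, 0.06 and -0.07 in OPE 1 to 4 and between -0.15 and 0.19 in the vehicle libraries. The median of the SOX genes was 0.20, 0.12, -0.40 and 0.38 in OPE 1 to 4, against -0.20 to 0.16 with vehicle. Sox9 alone gave 0.20, -0.07, -0.21 and 0.01 in OPE 1 to 4. The summed macrophage markers were lowest in OPE 1 and OPE 2 too, at 23.6 and 41.9 CPM, as were the summed endothelial markers, at 107 and 162 CPM. Whether this has a part in the matrix values was not tested.

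Genes around these 10 were read from 5 lists, and over all genes tested 0.477% passed. Among 18 tested partners and early regulators of chondrocytes none passed, with 9 below and 9 above 0 and a median log2 fold change of -0.01. The smallest p values there belonged to Fgfr3, a receptor that restrains chondrocyte growth (0.33 ± 0.10, edgeR adjusted p = 0.176), and Nkx3-2, a repressor that SOX9 acts with in early cartilage (-0.33 ± 0.10, edgeR adjusted p = 0.189). For both the OPE and vehicle values did not overlap. They were the only 2 of the 18 for which this held, against 9.49% of all genes tested. Of 7 cartilage collagens none passed and the median was -0.06. Col2a1, the main fibril gene of cartilage, gave -0.06 ± 0.12, Col11a1 gave -0.25 ± 0.14 and Col27a1 -0.08 ± 0.10 (edgeR adjusted p = 0.892, 0.487 and 0.79).

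Of 34 other non-collagen matrix and secreted cartilage genes none passed, 25 were below 0 and 9 above, and the median was -0.15. The share below 0 over all genes tested was 47.2%. Fmod, which encodes the small proteoglycan fibromodulin of collagen fibrils, averaged 124 ± 6.03 CPM with vehicle and 89.9 ± 13.9 CPM with OPE (SD, n = 4; log2 fold change -0.46 ± 0.11, edgeR adjusted p = 0.0994). Clec3a, a C-type lectin gene of cartilage, had 134 reads over the vehicle libraries and 21 over the OPE libraries, and its log2 fold change was -2.31 ± 0.59 (edgeR adjusted p = 0.115). Of 25 enzymes and transporters of proteoglycan synthesis and sulfation none passed, with 9 below and 16 above 0 and a median of 0.03. The smallest p values were those of Xylt2 and B4galt7, enzymes that start the sugar chains of proteoglycans (-0.21 ± 0.09 and 0.22 ± 0.10, edgeR adjusted p = 0.321 and 0.363).

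In the list of late cartilage genes 4 of the 11 tested passed, all of them lower with OPE. Over all genes tested 0.477% passed in either direction, and the median of the list was -0.80. Mmp13, a gene of the list below the filter and so not tested, went the other way. It had 29 reads over the vehicle libraries and 159 over the OPE libraries (5.12 CPM in OPE 1, the highest). Alpl, alkaline phosphatase of mineralising tissue, fell by 0.91 ± 0.14 on the log2 scale and Col10a1, the collagen of hypertrophic cartilage, by 1.73 ± 0.33 (edgeR adjusted p = 0.0247 and 0.0493). The other 2, named after their values were seen, were the transcription factor genes Runx3 and Sp7 (-0.78 ± 0.14 and -0.83 ± 0.15, edgeR adjusted p = 0.0388 and 0.0452). Runx2, which directs hypertrophy and osteoblast fate, gave -0.65 ± 0.14 (edgeR adjusted p = 0.0776), and Ihh, the signal of prehypertrophic chondrocytes, gave 0.32 ± 0.15 (edgeR adjusted p = 0.417). Col10a1 is uncertain to the extent that Nt5dc1, which spans it on the other strand, held 89.9% as many reads. These 4 calls depended on the libraries and the processing: 0 of them passed without vehicle 1, vehicle 2, vehicle 4 or OPE 2, 1 without vehicle 3, 2 without OPE 1, and 3 without OPE 3 or OPE 4. Their log2 fold changes ranged from -1.93 to -0.66 in these fits. With all 8 libraries, 1 of the 4 passed at a mean of at least 5 CPM. Col10a1 did not pass with limma-voom, without the filter or with the length trend removed (adjusted p = 0.0782, 0.0805 and 0.0653), nor Runx3 with the replicate block (adjusted p = 0.0656). By comparison the 95% intervals of Sox9, Acan and Comp began at -0.27, -0.33 and -0.31, and that of Alpl ran from -1.21 to -0.60. Those of Hapln1, Matn1, Matn3 and Chad began at -0.71, -0.67, -0.81 and -0.75, inside the Alpl interval. The difference between single genes was not itself tested.

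In the authors' deposited table the 10 genes gave log2 fold changes from -0.34 for Chad to 0.15 for Matn4. For all 10 these were smaller in size than those of DESeq2 as run here (-0.42 for Chad and 0.17 for Matn4). The reason was not tested, so the sizes are not directly comparable with those above. The authors' deposited adjusted p was lowest for Chad (0.194) and Hapln1 (0.341), so none of the 10 passed 0.05 there either.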

How the data were processed

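Poly-A RNA of 8 libraries was sequenced, and CASAVA 1.8, STAR 2.5, HTSeq 0.6.1, DESeq2 and the build mm10 are named, without their roles, per the submitters' processing notes. The authors deposited 1 table with raw read counts per gene, a signal column (the count divided by 1 factor per library), FPKM, and their own log2 fold change and p-value columns, per the file headers; the sources used here do not give the annotation release or strand setting. The deposited gene length and position columns were used as other annotation values in bases.

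Libraries were grouped by title, 4 per group. The counts as deposited were fitted over the whole table with edgeR 4.0.16 in R 4.3.3 (TMM, filterByExpr, robust quasi-likelihood fit, group as the only term, two-sided, Benjamini-Hochberg at 0.05). Standard errors are the fold change divided by the square root of F. CPM uses TMM-scaled totals, and log2 CPM a prior count of 2. Levels between genes are compared only per length, as deposited FPKM. The genes, lists and tests were chosen with earlier results of these data known. Named genes were all 10 members, 5 set cartilage genes, the 2 of smallest p in each other related list, and the 3 nearest in pattern to Sox9, Acan and Chad; in the late cartilage list, where the rule set 4 genes, Runx3 and Sp7 were named after their values were seen. Of the symbols in the lists, Znf219 and Bpnt2 were not matched, and Chst13 and Mmp13 were among those below the filter. The macrophage, endothelial, muscle, tendon, Schwann, ectoderm, cartilage and limb mesenchyme markers were summed as CPM; limb mesenchyme gave 1291 to 1363 with vehicle and 1315 to 1473 with OPE. The test of OPE against vehicle was tested on simulated data, the descriptive steps were not. It called 52.2% of simulated 1.5-fold changes and 95.5% of 2-fold changes, and 17 of its 181 calls were false. The estimates of all 10 members were smaller than 1.5-fold, and changes that small were not simulated. The alternatives used DESeq2 1.42.0, limma 3.58.1, other scaling and filters, a gene-length offset (spline with 5 degrees of freedom), and fewer libraries.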

Additional observations from a re-analysis of the deposited data

How the results depend on the processing

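None of the 10 genes passed in any of the 20 alternative fits, and Sox6, Acan, Hapln1, Matn1, Matn3 and Chad kept their sign in all 20. The sign changed for Sox5 without OPE 4, for Sox9 with the length trend removed (log2 fold change 0.0167) and without vehicle 1, OPE 2 or OPE 3, for Matn4 without both OPE 1 and OPE 3 (-0.00699), and for Comp without vehicle 2, vehicle 3, OPE 1 or OPE 2. Leaving out 1 library gave log2 fold changes of -0.0534 to 0.21 for Sox5, -0.0996 to 0.0458 for Sox9 and -0.148 to 0.0233 for Comp. The nearest to a call was Matn1 without OPE 3 (adjusted p = 0.0853). The count over all genes, 74 (68 lower, 6 higher), was 131 with library totals, 136 without the filter, 19 at a mean of at least 5 CPM, 536 with DESeq2, 300 with the length trend removed (195 lower, 105 higher), and 112 with the newer quasi-likelihood method, which was added after seeing the data. Leaving out 1 library gave 7 to 308, the extremes being without vehicle 2 or vehicle 4, and without OPE 3. It was 8, 19, 12 and 178 without vehicle 1, vehicle 3, OPE 2 and OPE 4. With the replicate number as a block it was 62, and 0 of the 10 passed. At an unadjusted p under 0.05 that fit had 4 of the 10, against 2072 of the 15517 genes tested. These were Chad, Matn1, Matn3 and Hapln1 (edgeR unadjusted p = 0.00477, 0.0256, 0.0331 and 0.0389), all lower with OPE. The labels do not say whether the number pairs the libraries. Same-number correlations of deviations were 0.31, 0.08, 0.01 and 0.09. For numbers 2 and 3 a library of another number correlated more (0.36 and 0.05). The order of levels was the same for all 10 genes with CPM per kilobase. Each of the 10 had at least 384 reads in every library. The cause of these shifts was not tested.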
